A study of Mus musculus with 4 samples.

Results

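Fibroblast growth factor (FGF) receptors and the FGF ligands of the developing kidney were examined for Eya1 occupancy in E13.5 mouse kidneys. The 10 genes, listed by name, were 5 receptors (Fgfr1, Fgfr2, Fgfr3, Fgfr4 and Fgfrl1) and 5 ligands (Fgf2, Fgf8, Fgf9, Fgf10 and Fgf20), out of 21951 protein-coding genes in the GENCODE M21 annotation of mm10. Eya1 was recovered through a HA-FLAG tag knocked into its own locus, with anti-FLAG M2 beads, from 80 kidneys for each assay, in mice of a mixed genetic background. The series holds 4 samples, of which the 2 Eya1 ChIP replicates have peak lists, and the 1 input and 1 IgG library were not analysed here. Pooled whole kidneys mix cell types, so an interval cannot be assigned to one of them. The lists hold intervals only, with no score, count or expression value, so depth is unknown, and neither the strength of binding nor kidney marker expression could be examined.

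FGF ligands signal through receptor tyrosine kinases, with heparan sulphate or Klotho proteins as cofactors in the ligand and receptor complex. In the kidney, Fgf9 and Fgf20 maintain nephron progenitors, Fgf8 is needed as nephrons form, and Fgfr1 and Fgfr2 act in the metanephric mesenchyme and ureteric bud. Fgfrl1 binds FGFs but lacks the intracellular tyrosine kinase domain, and is also needed for nephron formation. Eya1 is a transcriptional coactivator and phosphatase that lacks a DNA-binding domain of its own and reaches chromatin with DNA-binding partners such as Six2.

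Eya1 peaks lay at the promoters of 2 of the 5 receptors, Fgfr1 and Fgfrl1, in both replicates, and at none of the 5 ligands in either. A promoter peak was an interval within 1 kb of a start site of the gene, with read-through transcript models left out. Of all protein-coding genes, 20.0% met this rule in replicate 1, 14.6% in replicate 2, 11.4% in both and 23.3% in either. The occupied genes were the same 2 of 10 in each replicate, near the share of all genes in replicate 1 and in either list and above the share in both, and no test was made on so few genes. With every annotated transcript kept, Fgfr2 joined them and the count became 3, where 23.5% of all genes qualified in either list.

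Fgfr1 (ENSMUSG00000031565.18, chr8:25513654-25575718, plus strand), a receptor of the mesenchyme, carried 1 promoter interval per replicate. The replicate 1 interval, chr8:25518534-25521196, was 2663 bp wide, wider than 97.6% of its list, and contained 7 of the 18 annotated start sites of the gene. The replicate 2 interval, chr8:25519889-25520034, was 146 bp, wider than 26% of its list, and lay wholly inside the former. Both were centred downstream of the start of the reference transcript Fgfr1-201, by 1106 bp in replicate 1 and 1202 bp in replicate 2. The narrower interval lay 1130 bp from that start and 52 bp from the start of another coding transcript, Fgfr1-205. The replicate 2 call at Fgfr1 thus depended on alternative starts. With 18 starts, Fgfr1 also had more chances to qualify than a gene with the median number of 3. The wide interval covered 758 bp of untranslated exon and 1905 bp of intron. Of the narrow one, the 111 bp outside untranslated exons are shown because both replicates marked them, with CpG dinucleotides in capitals (chr8:25519924-25520034, mm10, plus strand, intron).
Fgfr1 shared interval: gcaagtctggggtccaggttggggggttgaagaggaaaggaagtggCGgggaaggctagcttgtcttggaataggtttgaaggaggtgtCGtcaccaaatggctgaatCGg
It held 3 CpG dinucleotides.

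Fgfrl1 (ENSMUSG00000008090.14, chr5:108692382-108706924, plus strand), the receptor without a kinase domain, was marked closer to its start. The replicate 1 interval, chr5:108693857-108695430, was 1574 bp, wider than 80.5% of its list, and contained 3 of its 5 annotated starts. The replicate 2 interval, chr5:108694505-108694624, was 120 bp, wider than 7.59% of its list, and began 3 bp downstream of the reference start. The midpoints lay 142 and 62 bp downstream of that start, and the narrow interval was again wholly inside the wide one. Its 92 bp beyond the untranslated exon are shown in the same way for comparison with Fgfr1 (chr5:108694533-108694624, mm10, plus strand, intron).
Fgfrl1 shared interval: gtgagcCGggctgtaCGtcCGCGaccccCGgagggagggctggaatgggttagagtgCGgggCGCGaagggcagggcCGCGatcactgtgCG
This stretch held 11 CpG dinucleotides. The replicate 2 intervals at Fgfr1 and Fgfrl1 were both narrower than the median of their list, 188 bp, whereas the replicate 1 intervals were both wider than theirs, 1069 bp.

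**Figure D1:**
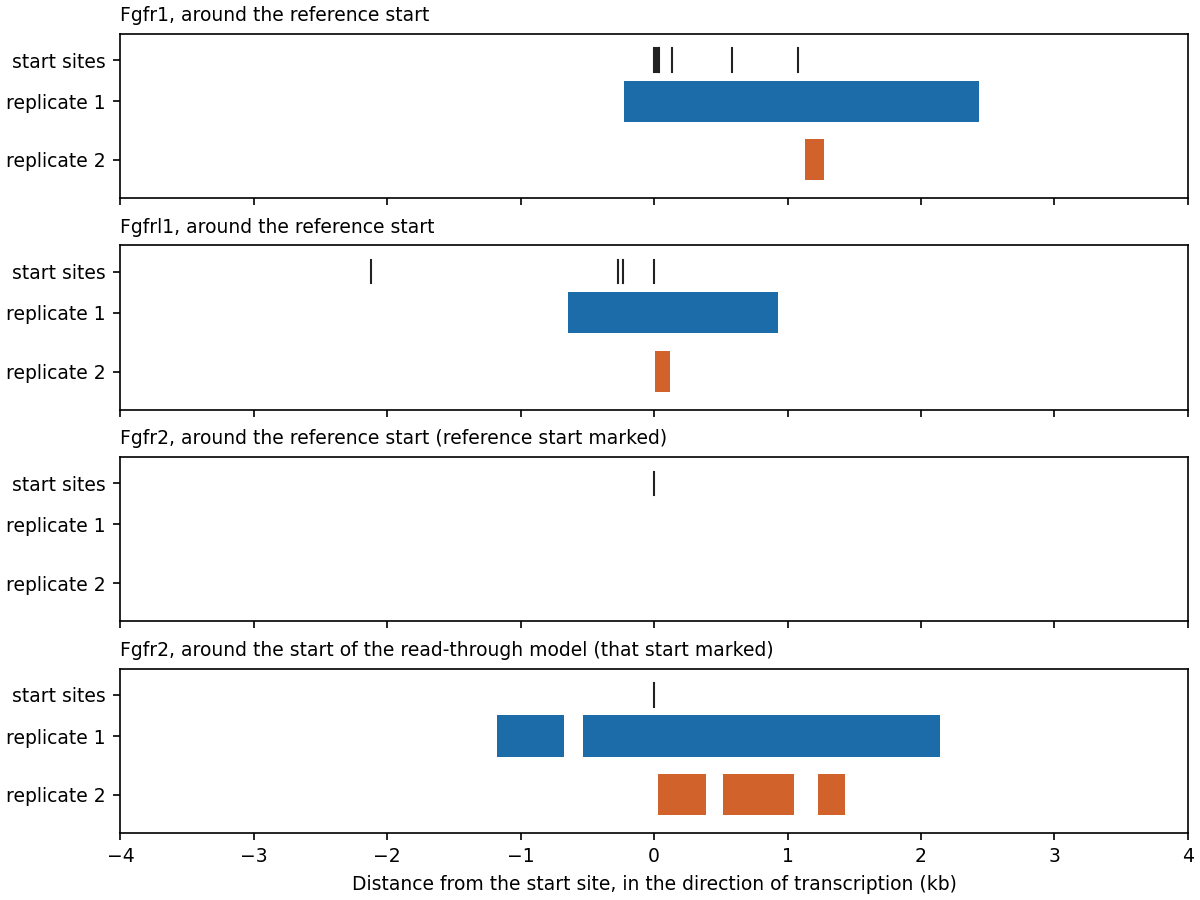
Eya1 intervals around start sites, with distance in kb on the horizontal axis, replicate 1 in blue, replicate 2 in orange and annotated starts as ticks. Fgfr1 and Fgfrl1 each have a wide and a narrow interval that coincide, the Fgfr2 reference start has none, and the start of the Fgfr2 read-through model has several.

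Fgfr2 (ENSMUSG00000030849.18, minus strand), the receptor of the ureteric bud and mesenchyme, was the gene whose call depended on the annotation. GENCODE lists 27 transcripts over chr7:130162451-133123350, a span of 2961 kb. A single model, Fgfr2-217, with 7 exons, accounted for that length. Its first exon, chr7:133123141-133123350, overlapped an exon of Ctbp2, a transcriptional corepressor gene, and its start lay 2 bp from a Ctbp2 start. That start was 2857 kb upstream of the start of the reference transcript. The model is labelled protein-coding and carries no read-through tag, so a filter on that tag alone would retain it. Without it the remaining 26 transcripts spanned 104 kb, chr7:130162451-130266263, and the annotated span was 28.5-fold longer.

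The annotated span of Fgfr2 overlapped 9 intervals in replicate 1 and 12 in replicate 2, whereas the 104 kb span overlapped 0 in both. The added stretch holds start sites of 30 other protein-coding genes, of which 11 had a promoter peak in either list. All 9 replicate 1 intervals, and 9 of the 12 in replicate 2, lay within 1 kb of the start of another protein-coding gene. The intervals at the read-through start were those of the Ctbp2 promoter, at which replicate 1 had 2 intervals, of 2676 and 505 bp, and replicate 2 had 3, of 205, 532 and 365 bp. Of these, 2 in each list lay within 1 kb of the read-through start. For the other Fgfr2 starts, the nearest interval was 253 kb away in replicate 1 and 254 kb away in replicate 2, at Ate1, an arginyltransferase gene. Of all genes, 70.5% in replicate 1 and 66% in replicate 2 had an interval nearer than this.

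**Figure D2:**
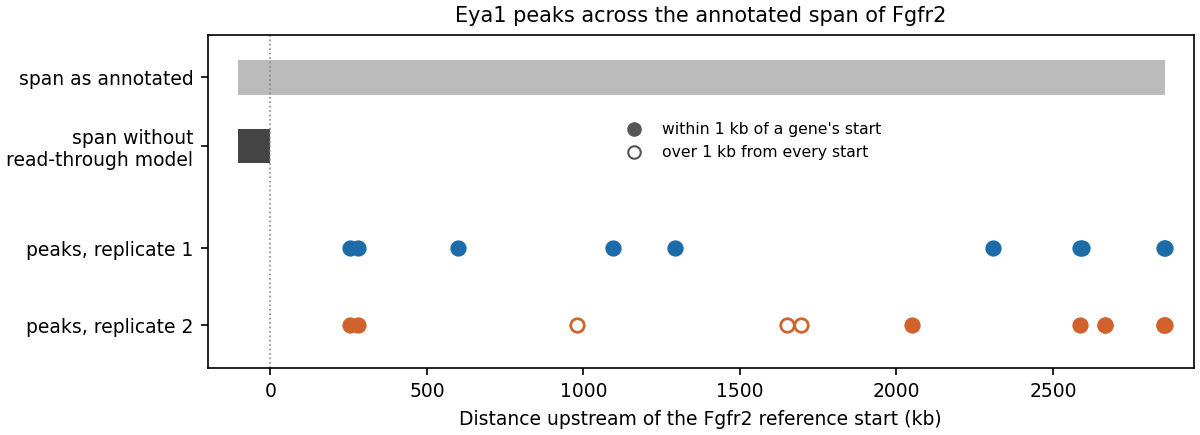
Intervals in each replicate by distance upstream of the Fgfr2 reference start (kb), under bars for the span as annotated and the span without the read-through model. Filled points lie within 1 kb of a gene's start and open points over 1 kb from every start. No point lies in the 104 kb span, and the points farthest upstream are those of the Ctbp2 promoter, 1 of which lies just beyond the annotated span.

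Fgfr3 and Fgfr4 had no promoter interval. Fgfr3 (ENSMUSG00000054252.18, chr5:33721674-33737068, plus strand) had its nearest interval 68.8 kb away in replicate 1, at Slbp, the gene of a histone mRNA-binding protein. In replicate 2 the nearest was 86.2 kb away, at Nsd2, a histone methyltransferase gene. Fgfr4 (ENSMUSG00000005320.9, chr13:55152640-55168759, plus strand) had its nearest at 46.8 kb, at Zfp346, in replicate 1 and at 54.5 kb, at Nsd1, in replicate 2. The intervals at Slbp and Zfp346 had no overlapping interval in the other list, whereas those at Nsd1 and Nsd2 did.

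None of the ligand promoters was marked in either list. Fgf8 (ENSMUSG00000025219.13, chr19:45736798-45742915, minus strand) came closest, with an interval 5.94 kb from a start in replicate 1. That interval lay at the promoter of Npm3, a nucleoplasmin family gene, and had no counterpart in replicate 2, where the nearest was 39.9 kb away. Fgf2 (ENSMUSG00000037225.13, chr3:37348346-37410108, plus strand) had its nearest at 35.3 and 35.6 kb, and these 2 intervals overlapped each other at the starts of Bbs12 and Cetn4. Fgf9 (ENSMUSG00000021974.15, chr14:58070547-58112720, plus strand) had one at 71.2 kb in replicate 1, at Micu2, a mitochondrial calcium uptake gene, and none nearer than 180 kb in replicate 2. The most distant were Fgf20 (ENSMUSG00000031603.14, chr8:40279166-40308331, minus strand), at 202 and 203 kb, and Fgf10 (ENSMUSG00000021732.14, chr13:118669791-118792115, plus strand), at 282 and 714 kb.

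The median distance to the nearest interval was 46.8 kb over the receptors and 71.2 kb over the ligands in replicate 1, and 54.5 and 180 kb in replicate 2. Over all protein-coding genes it was 83.2 and 117 kb. Individually, 7 of the 10 genes in replicate 1 and 6 in replicate 2 were nearer than the median gene. Fgf10 was the farthest of the 10 in both lists, with 72.3% and 83% of all genes nearer to an interval.

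No gene of the 10 had an interval in its body other than at the promoter. Peaks in the gene body, by at least 1 bp of overlap with the span without read-through models, marked Fgfr1 and Fgfrl1, where 23.6% of all genes qualified in either list. These were the same intervals as at the promoters, and counting those over 1 kb from the gene's own starts left 0 genes. With spans as annotated Fgfr2 was added and 3 genes qualified, against 23.9% of all genes.

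Within 100 kb of a start site, 7 genes had an interval in replicate 1 and 6 in replicate 2, against 53.2% and 46.4% of all genes. In either list the count was 7 of 10, against 58.3%, and with every transcript kept it was 8 of 10, against the same 58.3%. Each list held 15 such intervals, 9 and 10 of them around receptors and 6 and 5 around ligands. Of the 15 in each list, 2 were the promoter intervals of Fgfr1 and Fgfrl1. A further 12 lay within 1 kb of the start of another protein-coding gene, and 1 lay over 1 kb from every such start. Leaving out intervals at other genes' starts, 3 genes remained, Fgfr1, Fgfrl1 and Fgf8, against 24.2% of all genes in either list.

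**Figure D3:**
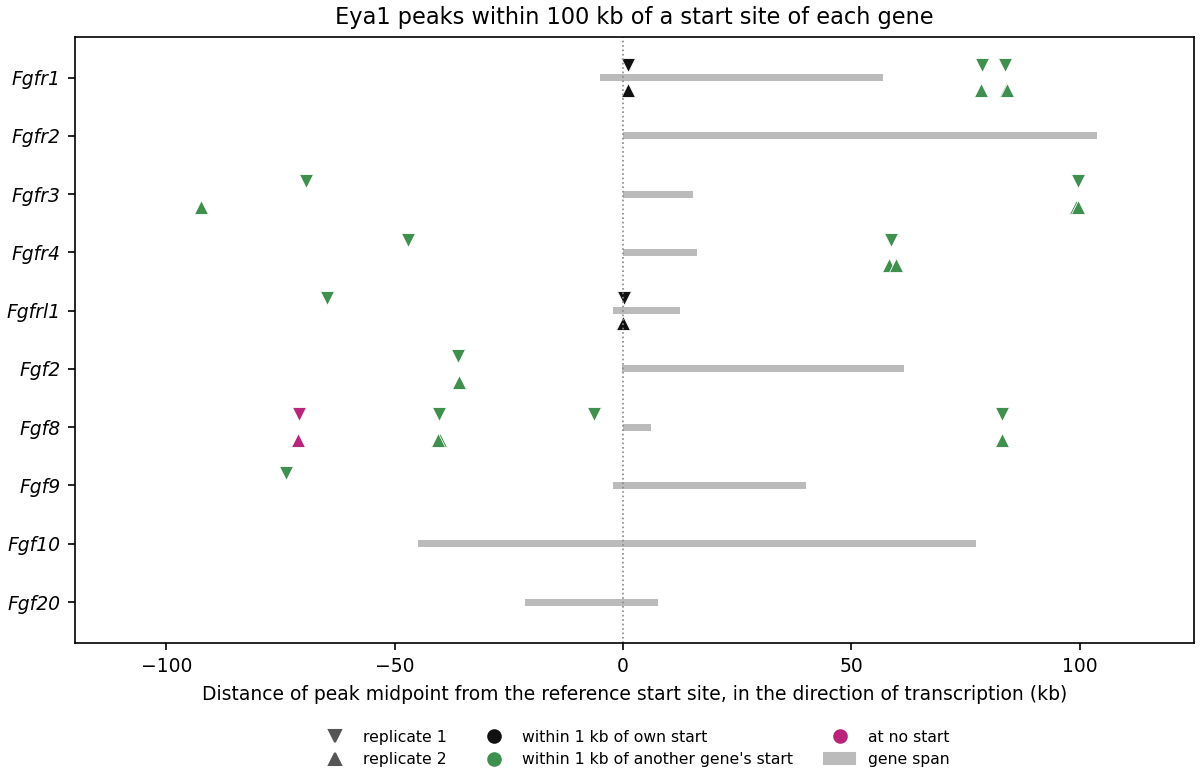
Midpoints of the intervals within 100 kb of a start of each gene, by distance from the reference start in kb (negative is upstream), with replicate 1 as downward and replicate 2 as upward triangles. Black triangles appear only at Fgfr1 and Fgfrl1, most others are green because they lie at another gene's start, and Fgfr2, Fgf10 and Fgf20 have none.

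Around Fgfr1 the neighbours with promoter intervals were Letm2, an inner mitochondrial membrane gene, and Nsd3, a histone methyltransferase gene, in both replicates. Around Fgfr3 they were Nsd2 in both, Slbp in replicate 1 and Fam53a with the adjoining Gm9903 in replicate 2. Around Fgfr4, Nsd1 was marked in both and Zfp346 in replicate 1. At Fgfrl1 the adjoining starts of Gak, a cyclin G-associated kinase gene, and Tmem175, a lysosomal channel gene, shared 1 interval in replicate 1. Around Fgf8 the promoters of Fbxw4 and Mgea5, the O-GlcNAcase gene, were marked in both lists.

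The interval over 1 kb from every start lay upstream of Fgf8, in an intron of Kcnip2, a potassium channel-interacting protein gene. Its distance from the nearest Kcnip2 start was only 1.48 kb in replicate 1 and 1.56 kb in replicate 2. The interval was chr19:45813772-45814069 in replicate 1, 298 bp wide and 70.9 kb from the nearest Fgf8 start. In replicate 2 it was chr19:45813850-45814075, 226 bp wide, also 70.9 kb away, and the 2 intervals overlapped over 220 bp. It was among the narrowest in replicate 1, wider than 2.08% of that list, and wider than 63.2% of the replicate 2 list.

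The intervals were searched for the RE1 element, the binding sequence of the repressor REST, on both strands, allowing 2 mismatches in the 17-bp consensus, in the 200 bp around each midpoint. The promoter intervals of Fgfr1 and Fgfrl1 held 0 matches among 4 intervals. Of the intervals within 100 kb, 2 of 15 in replicate 1 and 1 of 15 in replicate 2 held one, against 5.4% and 16.7% of each whole list. All 3 lay around Fgf8. The closest match was in the Kcnip2 intron, with 1 mismatch, 42 bp from the midpoint in replicate 1 and 0 bp in replicate 2. Its interval was the only one over 1 kb from every start and was present in both lists. The element is therefore shown in capitals with 10 bp on each side (chr19:45813945-45813981, mm10, plus strand).
Kcnip2 intron element: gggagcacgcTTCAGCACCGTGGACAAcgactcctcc
The other interval with a match, in replicate 1, was at Fbxw4, in coding sequence. Over whole intervals, 4 of 15 in replicate 1 and 2 of 15 in replicate 2 held a match, against 17.5% and 17.4% of the lists. Among these the wide Fgfr1 interval held 1, with 2 mismatches, 780 bp from its midpoint.

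CpG content was then compared, since promoter intervals in both lists were concentrated in CpG-rich promoters. The observed over expected CpG ratio, in 500 bp either side of the reference start, had a median of 0.815 in promoters with an interval in either list within 1 kb and 0.408 in the others. With a ratio of 0.6 or more, 42.4% of 10376 promoters were marked, and below it 3.38% of 11562. Fgfr1 (0.804) and Fgfrl1 (0.91) were CpG-rich, but so were Fgfr2 (0.926), Fgfr3 (0.703), Fgfr4 (0.697), Fgf2 (0.75), Fgf8 (0.793) and Fgf9 (0.966), which had no promoter interval. Fgf10 (0.533) and Fgf20 (0.575) fell below the threshold. Of the 8 genes at or above it 2 were marked, against the 42.4% of all such promoters, and the highest ratio of the 10 belonged to an unmarked gene, Fgf9. The ratio did not separate marked from unmarked genes among the 10.

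**Figure D4:**
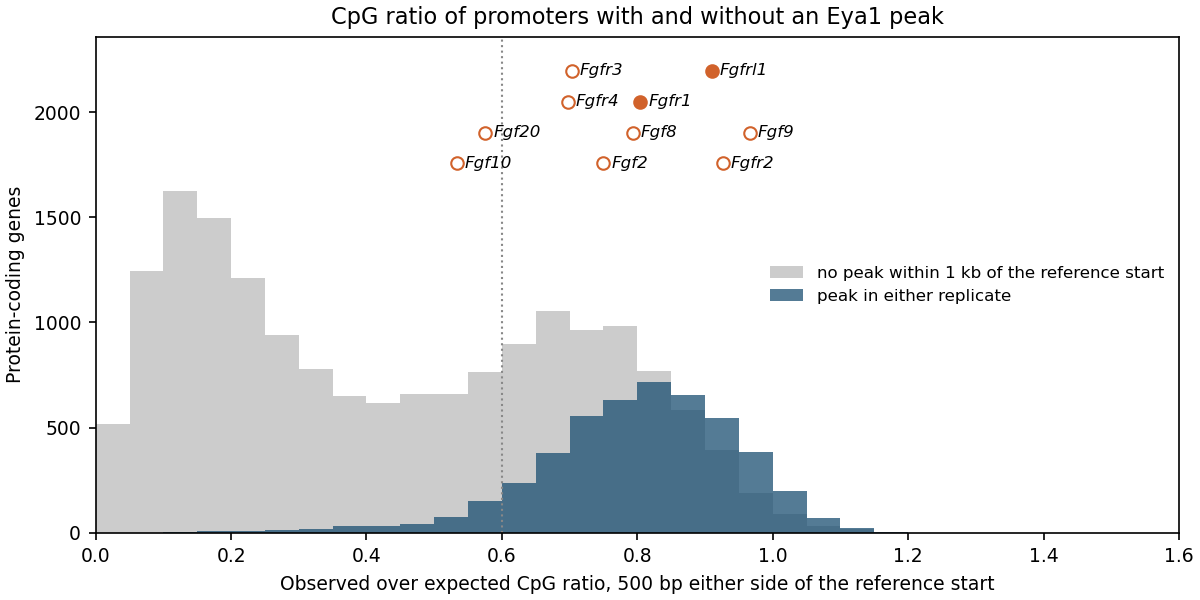
Number of protein-coding genes by CpG ratio, in grey without and in blue with an interval in either list within 1 kb of the reference start. The 10 genes are plotted above at their ratios (filled if marked, heights arbitrary), and 8 lie at or right of the dotted line at 0.6, of which Fgfr1 and Fgfrl1 are filled.

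The 120 bp upstream of the reference start are shown for the unmarked ligands Fgf9 and Fgf10 and for the unmarked receptor Fgfr4, 5′ to 3′ on the strand of the gene, with CpG in capitals. They were chosen among stretches without an annotated untranslated exon, leaving out that of the unmarked Fgf20, and do not represent the unmarked genes. They lie at chr14:58072566-58072685 (plus strand), chr13:118714579-118714698 (plus strand) and chr13:55152520-55152639 (plus strand) of mm10. The stretches of Fgf9 and Fgf10 lie in introns of longer transcripts, and that of Fgfr4 is intergenic.
Fgf9 upstream: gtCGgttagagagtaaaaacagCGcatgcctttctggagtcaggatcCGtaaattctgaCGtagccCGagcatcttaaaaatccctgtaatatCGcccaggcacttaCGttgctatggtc
Fgf10 upstream: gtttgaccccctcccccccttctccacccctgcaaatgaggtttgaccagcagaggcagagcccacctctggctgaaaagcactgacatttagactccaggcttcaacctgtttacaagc
Fgfr4 upstream: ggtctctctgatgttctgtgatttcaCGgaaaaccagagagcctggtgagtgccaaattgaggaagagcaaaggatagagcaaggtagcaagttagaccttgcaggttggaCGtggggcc
These held 7, 0 and 2 CpG dinucleotides, respectively. The same stretch held 24 at Fgfr2, 16 at Fgf2, 12 at Fgfr3, 11 at Fgf8 and 2 at Fgf20, all unmarked. It held 4 at Fgfr1 and 19 at Fgfrl1, both marked. In the 250 bp before and 50 bp after the reference start, the SP motif GGGCGG was present on either strand in 7 of the 10 genes and in 45.2% of 21938 promoters. The genes without it were Fgfr4, Fgf9 and Fgf20. The highest number, 9, was at the unmarked Fgf8. CCAAT, the NFY motif, was present in Fgfr2, Fgfr3 and Fgf8, and in 38.5% of promoters. The NRF1 motif GCATGCGC was found in Fgf9 and in 3.72% of promoters. The ETS (CCGGAAG) and YY1 (AAGATGGC) motifs, GTATCA, searched as a sine oculis homeobox motif, and the TATA box (TATAAA, plus strand of the gene) were present in 0 of the 10, and in 11.1%, 3.07%, 4.5% and 8.65% of promoters. The wide replicate 1 intervals held 7 GGGCGG matches at Fgfr1 and 14 at Fgfrl1, and 2 and 3 CCAAT matches. The Fgfrl1 interval also held 1 CCGGAAG and 1 GTATCA match. The narrow replicate 2 intervals held 0 matches to any of these motifs. These counts are not comparable, since the wide intervals were 2663 and 1574 bp and the narrow ones 146 and 120 bp. No rate over all intervals is given here.

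The rest of the pathway was read in the same way, by role. Promoter intervals were absent from the FGF genes, receptors aside, and frequent among intracellular transducers. None of the 17 other FGF genes had one, so that 0 of 22 FGF genes in all were marked in either list. Not all of these 22 genes need encode receptor ligands. Of the 22, 11 had a CpG ratio of 0.6 or more. Among 23 adaptors, GTPases, kinases and other transducers, 16 were marked in replicate 1, 17 in replicate 2, 12 in both and 21 in either, or 91.3%. All 23 of these had CpG-rich promoters, and 20 were marked at the reference start, beside 42.4% of all CpG-rich promoters. These shares stood beside 11.4% of all genes in both lists and 23.3% in either, with no test of the lists, and the part of CpG content in the difference was not tested.

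Transducers marked in both lists included the adaptor genes Crk, Crkl and Frs2, the GTPase gene Hras and the kinase gene Map2k2. At Frs2, the adaptor bound to the receptors themselves, the widest was 802 and 291 bp. Frs3, Nras, Map2k1 and Pik3r1 were marked in replicate 1 alone, and genes that included Gab1, Sos1, Braf and Mapk3 in replicate 2 alone. The 2 transducers without an interval, named after their values were seen, were the adaptor gene Grb2 and the kinase gene Araf.

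Of 23 coreceptor and heparan sulphate genes, 9 were marked in replicate 1, 6 in replicate 2, 5 in both and 10 in either (43.5%), against 20.0%, 14.6%, 11.4% and 23.3% of all genes. CpG-rich promoters made up 17 of the 23, and 9 of those 17 were marked at the reference start, beside 42.4% of all CpG-rich promoters. Those in both were the core protein genes Sdc1 and Gpc6 and the heparan sulphate synthesis genes Ext2, Ndst1 and Ndst2. At Sdc1, which encodes syndecan-1, the intervals were 2364 and 307 bp wide. Flrt2, Ext1, Extl3 and Glce were marked in replicate 1 alone and Hs2st1 in replicate 2 alone.

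Of 13 annotated inhibitor and target genes, 4 were marked in replicate 1, 5 in replicate 2, 2 in both (15.4%) and 7 in either (53.8%), against 11.4% of all genes in both and 23.3% in either. Here 12 of the 13 promoters were CpG-rich and 7 of the 12 were marked at the reference start, again beside 42.4%. Spry2, a feedback inhibitor of receptor tyrosine kinase signalling, was marked in both, by 2215 bp in replicate 1 and at most 775 bp in replicate 2, wider than 94.4% and 98.4% of the lists. Cbl, a ubiquitin ligase gene, was the other, at 944 and 148 bp. Dusp6, the ERK phosphatase gene, and Etv5, a transcription factor gene, were marked in replicate 1 alone, and Spry1, Spred1 and Cblb in replicate 2 alone. Over the 76 other annotated pathway genes, 38 (50%) were marked in either list and 19 (25%) in both, against 23.3% and 11.4% of all genes. Of these 76 genes, 60 had CpG-rich promoters, 36 of which were marked at the reference start, beside 42.4% of all such promoters.

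**Figure D5:**
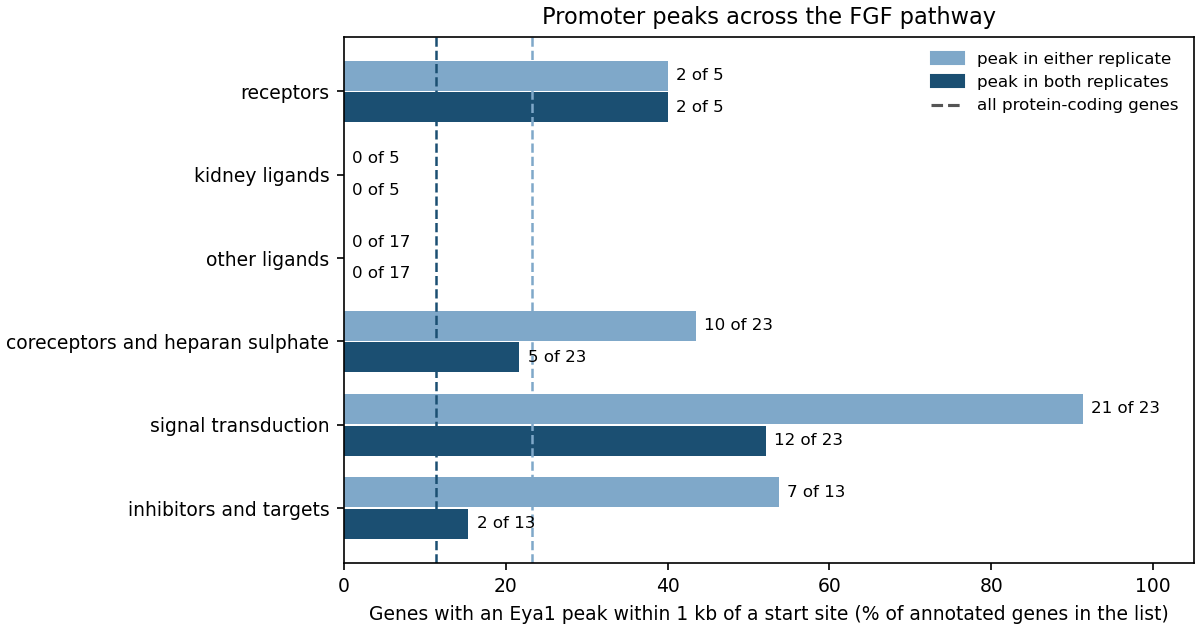
Share of each FGF pathway list (% of annotated genes) with a promoter interval in either replicate (light bars) and in both (dark bars), with dashed lines for all protein-coding genes. Both lists of FGF genes, labelled as ligands, are at 0. Signal transduction is highest, with 21 of 23 genes in either list and 12 in both.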

How the data were processed

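Eya1 ChIP-seq peaks from 2 replicates of E13.5 kidneys were analysed as deposited intervals. According to the methods of the study, the authors used Bowtie defaults for alignment to mm10, then MACS with various P cutoffs and input or IgG as control, whereas the processing notes of the submitters name HISAT2. For later steps, the study kept the peaks common to the input and IgG calls. The cutoff and control of each list, and whether it had that step, are not given in the sources used here. The deposited coordinates carry no signal, count or p-value, so a gene without an interval is one at which none was listed, and widths also reflect peak calling in each library.

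Intervals were converted to 1-based coordinates and compared with GENCODE M21 using Python 3.11.15, numpy 2.4.6 and pysam 0.24.0. Sequences came from the RefSeq mm10 assembly, and figures were drawn with matplotlib 3.10.9. A transcript was a read-through model when tagged so, or when an exon overlapped a same-strand exon of another protein-coding gene. The latter also marks transcripts of the partner gene, so neighbouring genes were assigned from all transcripts, and all were kept where none would be left. The rule marked 3499 of 101652 transcripts. The reference transcript had the best APPRIS level, then CCDS and basic tags, then length. Promoter, gene body and distance rules were applied to all genes, and functions were tested on simulated intervals and elements. The 10 genes and the pathway lists were chosen with earlier results of these data known. All 10 were named, as were pathway genes with a promoter interval, up to 6 per class in alphabetical order, except some items not reported here, and genes within 1 kb of a flanking interval. Of the pathway genes listed, 1 (Spry3) had no protein-coding annotation. Nothing was tested statistically, because the lists carry no counts or scores and the genes were chosen with earlier results known. Replicates are separate samples by their labels.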

Additional observations from a re-analysis of the deposited data

How the results depend on the processing

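Of 35 alternatives, 28 left the count of genes or intervals within 1.5 times its value. A change between 2 and 3 genes stays within this limit, so for the smallest counts it says little about stability. Requiring 50% of the narrower interval to overlap could change nothing, since each narrow promoter interval lay wholly inside the wide one. Requiring both replicates lowered the other pathway genes with a promoter interval from 38 to 19. Leaving out intervals within 1 kb of the gene's own starts lowered the genes with a body interval from 2 to 0, and leaving out those at other genes' starts lowered the genes with an interval within 100 kb from 8, with all transcripts, to 3. The 2 shared promoter intervals became 0 when 50% of both intervals had to overlap, since one list is wide and the other narrow. Intervals within 100 kb with an RE1 match rose from 3 to 6 over whole intervals and to 7 with 3 mismatches, and leaving out 1 replicate gave 1 to 2, with 1 when replicate 1 was left out. Apart from the search over whole intervals, each of these alternatives could move its count only in the direction seen. The size of each change, such as that from 38 to 19, was not set by the rule. The promoter count was 3 in every alternative except without read-through models, where it was 2. The alternatives with 3 kept the Fgfr2 read-through model, and the count of 2 was not varied by distance or interval width. No paired analysis was possible because no result comes from a test.

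With 2 lists and no scores or depth, a missing interval does not show absence of binding, and the annotation used sets the call at Fgfr2 and, in replicate 2, at Fgfr1.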

Other observations

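The 3 Nsd genes, which encode histone H3 lysine methyltransferases, each lie near an FGF receptor gene and were each marked at the promoter in both replicates, where 11.4% of all genes were. This family and those compared with it were picked with their values in view. Nsd3 starts 31.9 kb from the nearest Fgfr1 start, Nsd1 53.7 kb from Fgfr4 and Nsd2 86.1 kb from Fgfr3. The widest interval at Nsd1 measured 3553 bp and 856 bp in replicates 1 and 2, wider than 99.4% and 98.9% of the lists. At Nsd3 it was 2113 and 303 bp, wider than 93.5% and 77.7%, and at Nsd2 1055 and 352 bp, wider than 48.8% and 83%. Letm2, with a start 12.4 kb from an Fgfr1 start, was marked in both lists. Its intervals lay farther away, 27.2 kb in replicate 1 and 27.4 kb in replicate 2 from the nearest Fgfr1 start. That start, also the nearest to the Nsd3 intervals, belongs to a retained-intron transcript inside the gene, Fgfr1-207. From the Fgfr1 reference start, the replicate 1 intervals at Letm2 and Nsd3 were centred 78.6 and 83.7 kb away. The Fgfr3 and Fgfr4 starts nearest to the Nsd2 and Nsd1 intervals also lay downstream of the reference starts. From the Fgfr3 and Fgfr4 reference starts, the replicate 1 intervals at Nsd2 and Nsd1 were centred 99.6 and 58.8 kb away. Letm1, with a start 19 kb from an Fgfr3 start, was marked in neither list. Tacc3, 53 kb from Fgfr3, was unmarked, as were Tacc1, 257 kb from Fgfr1, and Tacc2, 311 kb from Fgfr2, which lie too far away to be compared with the others. The receptor at the shared locus was itself marked at Fgfr1 and not at Fgfr3 or Fgfr4.

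Fgfr2 was not alone in having a shorter span once transcripts that share an exon with another gene were left out. The span of 405 protein-coding genes shrank under this rule, that of 53 by at least 10-fold, and Fgfr2 ranked 16 by this fold. The rule also removes transcripts of the partner gene, so these are not counts of genes lengthened by a read-through model.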
